A study of Mus musculus with 8 samples.

Results

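The change in gene expression from day 4 to day 6 was described in MOPC tumours of Tlr3/7/9-/- (KO) hosts. MOPC is a mouse oropharyngeal carcinoma line that was injected subcutaneously into C57BL/6 mice. The comparison rests on 4 of the 8 arrays of the series, 2 tumours of KO hosts taken at day 4 and 2 taken at day 6, and the 4 arrays of WT hosts of the same days were used for the spread and for the test of a difference between hosts. KO hosts lacked Tlr3, Tlr7 and Tlr9, the endosomal receptors for double-stranded RNA, single-stranded RNA and CpG DNA, and the genotype is that of the host, not of the injected cells. The study used adult mice of both sexes, and neither age nor sex is given per array. For the arrays of day 6 its figure legend gives an age range of 8 to 16 weeks. Its methods describe the arrays of day 6, and for day 4 only the sample labels give the day and the genotype. All 12505 tested autosomal genes were compared, out of 17405 autosomal genes and 18195 genes in all with a probe set of their own. All differences below are day 6 minus day 4 in KO hosts on the scale of log2(signal + 16) unless stated otherwise, and a gene was called at an adjusted p under 0.05 from limma over all tested genes. Since no source says whether replicates of day 4 came from separate mice, the p-values measure only the spread between these arrays. Precision is limited by there being 2 arrays a group, and an exact permutation of 2 against 2 arrays cannot give a two-sided p under 0.333.

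A tumour a few days after injection is a mixture of carcinoma cells, recruited blood vessels, fibroblasts and immune cells. In such tissue, interferon-γ, a cytokine of T cells and NK cells, induces guanylate-binding proteins, immunity-related GTPases, the chemokines CXCL9, CXCL10 and CXCL11 and the machinery of antigen presentation by MHC class I. Dividing cells carry transcripts of DNA replication and of mitosis, and cells short of oxygen induce glycolytic enzymes and Car9 through HIF. Many cells also carry a circadian clock, in which CLOCK and ARNTL drive their own repressors, so that clock transcripts depend on the hour of sampling.

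Day cannot be told apart from other features of the hosts and of the sampling. Xist, the RNA that silences an X chromosome, had signals of 44.6 and 90.6 at day 4 and 7121 and 6887.6 at day 6. Eif2s3y, a gene of the Y chromosome, had 1176.7 and 1108.4 at day 4 and 20.3 and 18.9 at day 6. The same split was present in WT hosts, with Xist at 91.5 and 142.1 and at 5579.1 and 6805.4. The sexes that these transcripts mark therefore changed fully with the day, and the clock genes described further below changed with it as well. Krt18, a keratin of the carcinoma, was high on every array, between 14124 and 27008.3. Skin and muscle transcripts were high in 1 KO tumour of day 6, replicate 2. Its signal of Krt10, a keratin of the upper skin, was 9762.5 against 467.9 to 599.4 on the other 7 arrays. Acta1, the actin of skeletal muscle, had 22022.4 in this tumour, 9824.4 in replicate 2 of day 4, and 652.8 and 358.7 in the replicates 1 of day 4 and day 6. The median of 22 muscle genes relative to each gene's mean was 2.71 and 1.17 in these replicates 2 and −1.49 and −1.55 in the other KO arrays. It was highest in WT day 4 replicate 2, at 4.19 with Acta1 at 34991.8, against −1.867 to −1.565 in the other WT arrays. That array enters the spread and the test of a difference between hosts. In KO hosts, 0 of the 22 muscle genes and 0 of 11 skin genes were called. High signals on 1 array of a pair widen the spread, so this does not show that the differences are free of such tissue. The median difference of the muscle genes was 0.59, or 2.81 and −1.49 without KO day 6 replicate 1 and 2. For the skin genes it was 1.12, or 2.30 and −0.07. As to the genotype, Tlr7 had 10.8 to 80.1 in KO and 382.9 to 673.4 in WT tumours. Tlr3 had 224 to 427.2 in KO and 543.9 to 811.1 in WT tumours, and the Tlr9 probe set was not lower in KO tumours (84.2 to 128.5 against 20.8 to 137.6). Where a probe set lies outside the deletion, its signal is no check of the genotype.

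Of the 12505 genes, 776 were called between the days in KO hosts (6.21%), 468 higher at day 6 (3.74%) and 308 lower (2.46%). In WT hosts 732 were called (5.85%), 526 higher (4.21%) and 206 lower (1.65%). The median difference over all tested genes was 0.0049, with quartiles of −0.28 and 0.26. Among the genes called, 179 rose by a log2 of at least 1 and 42 of at least 2, and 149 and 29 fell as far. The groups of all genes called did not overlap, which was also true of 3885 higher and 3780 lower genes of all those tested. The size of the count depended on single arrays. Without KO day 4 replicate 1 only Gzmb and Lmo1 were called, and without replicate 2 Ccl24, Gzmb and Lmo1, where the remaining array is assumed to vary like the other groups. Lmo1, a LIM domain transcription regulator, was chosen after its values were seen, with signals of 210.5 and 176.1 at day 4 and 1367 and 1856.8 at day 6 (difference 2.95, standard error 0.21). Without KO day 6 replicate 1 there were 154 calls and without replicate 2 there were 142. Leaving out WT day 4 replicate 1 or 2 raised the count to 1280 and 1310. Leaving out an array could not turn the sign of any of the 776, because their KO groups did not overlap. Centring each array on its median, which shifted the median of all genes by 0.17, gave 1106 higher and 195 lower genes. The smallest difference called was 0.43 in size, so this shift could not turn a sign either.

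**Figure D1:**
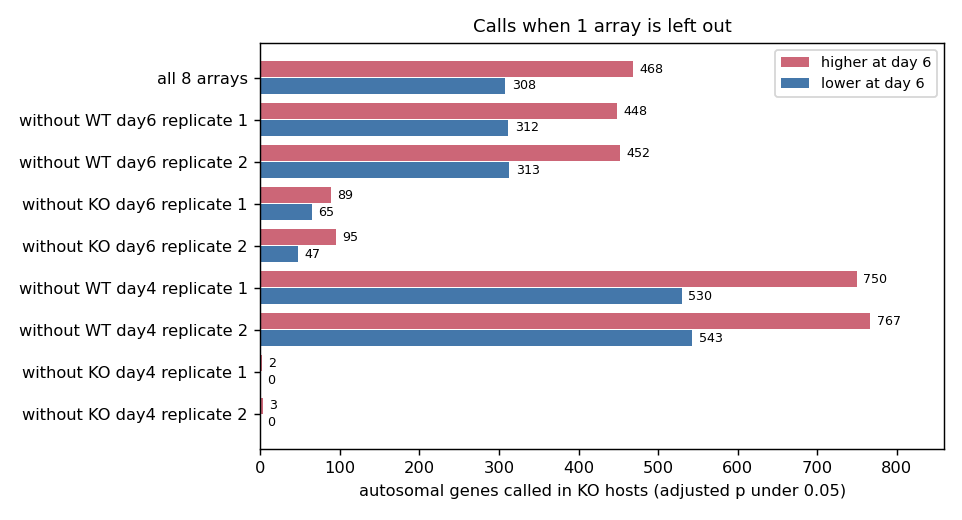
Number of autosomal genes called between day 6 and day 4 in KO hosts (x axis, genes with an adjusted p under 0.05) with all 8 arrays and with each array left out; red bars count genes higher and blue bars genes lower at day 6. The counts were 468 and 308 with all arrays, and 2 and 0 or 3 and 0 without an array of KO day 4.

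Genes induced by interferon-γ made up 9 of the 15 largest named rises. Gbp2, a guanylate-binding protein, had signals of 902.4 and 628.1 at day 4 and 20582.9 and 9501.7 at day 6, a difference of 4.19 (standard error 0.39, adjusted p = 0.00496 from limma). Cxcl9, a chemokine that attracts T cells and NK cells through CXCR3, had 173.5 and 224 at day 4 and 9171.2 and 2727.5 at day 6, a difference of 4.56 (standard error 0.71). Cxcl10, a ligand of the same receptor, had 256.9 and 232.1 at day 4 and 7055.7 and 1408.9 at day 6, a difference of 3.61 (standard error 0.60). Day 6 lay above day 4 on both arrays for each of these genes, and replicate 1 of day 6 was the higher of the pair. The immunity-related GTPases Iigp1, Igtp, Irgm2 and Ifi47, which attack the vacuoles of intracellular parasites, rose by 3.99, 3.34, 3.32 and 3.25. Ubd, a ubiquitin-like protein induced by this cytokine, and Slamf8, a receptor of myeloid cells, are outside the list and rose by 3.72 and 3.80, as did Rab44, a large Rab GTPase, by 3.40. Gbp6 and Gbp8 rose by 3.87 and 3.46, and Irf1, a transcription factor induced by interferon-γ, by 2.02. Of 22 tested genes of the interferon-γ response, 18 were called higher and 1, Ifngr1, a chain of the receptor, was called lower (−0.60), where 3.74% and 2.46% of all genes were called higher and lower. These shares over all genes stand beside the counts of every list below. The median of the interferon-γ list was 2.33, and it stayed between 1.87 and 2.96 when a KO array was left out. A larger number of responding cells and more RNA per cell cannot be told apart in bulk tissue, here or in any group below. Ifng itself lay below the limit on low signals, with 31.5 and 9.5 at day 4 and 396.1 and 177.8 at day 6 (difference 3.02, adjusted p = 0.0319 from limma fitted without that limit).

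The promoters of these genes were searched for GAAANNGAAA on both strands, the core of the interferon-stimulated response element, in the 300 bases from 250 before to 50 after each start of transcription given by RefSeq on GRCm38.p6. This motif was chosen after the values were seen. Of the 18 genes called higher in the list, 14 had a window and 8 of these held the motif (57.1%), namely Cxcl10, Gbp2, Gbp3, Gbp7, Igtp, Irgm1, Irgm2 and Socs1. It was present in 32 of 356 windowed genes among all autosomal genes called higher (8.99%) and in 1079 of all 27025 genes (3.99%). A match is a description of the letters and no evidence of binding. The windows of genes with some of the largest rises follow, 5′ to 3′ on the strand of the gene, with the matches in capitals. They lie at chr3:142620413-142620712 (plus strand) for Gbp2, chr5:92348840-92349139 (minus strand) for Cxcl10, and chr11:58199306-58199605 and chr11:58214727-58215026 (both plus strand) for Igtp and its neighbour Irgm2.
Gbp2: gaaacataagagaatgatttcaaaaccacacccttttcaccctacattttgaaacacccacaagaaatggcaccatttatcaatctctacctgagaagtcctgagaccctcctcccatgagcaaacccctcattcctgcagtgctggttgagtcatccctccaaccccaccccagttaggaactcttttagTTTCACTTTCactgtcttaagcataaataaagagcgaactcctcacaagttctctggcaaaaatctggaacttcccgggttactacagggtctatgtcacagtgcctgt
Cxcl10: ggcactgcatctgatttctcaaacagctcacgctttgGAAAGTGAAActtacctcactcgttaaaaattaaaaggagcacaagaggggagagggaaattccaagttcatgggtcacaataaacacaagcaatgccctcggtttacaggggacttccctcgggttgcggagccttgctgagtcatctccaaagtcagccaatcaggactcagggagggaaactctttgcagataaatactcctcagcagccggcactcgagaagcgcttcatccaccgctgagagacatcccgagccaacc
Igtp: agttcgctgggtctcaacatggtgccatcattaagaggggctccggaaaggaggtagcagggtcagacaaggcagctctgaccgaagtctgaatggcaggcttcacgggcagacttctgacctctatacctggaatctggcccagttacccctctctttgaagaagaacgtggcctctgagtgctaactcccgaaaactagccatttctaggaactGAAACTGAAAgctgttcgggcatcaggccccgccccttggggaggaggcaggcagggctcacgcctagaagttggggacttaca
Irgm2: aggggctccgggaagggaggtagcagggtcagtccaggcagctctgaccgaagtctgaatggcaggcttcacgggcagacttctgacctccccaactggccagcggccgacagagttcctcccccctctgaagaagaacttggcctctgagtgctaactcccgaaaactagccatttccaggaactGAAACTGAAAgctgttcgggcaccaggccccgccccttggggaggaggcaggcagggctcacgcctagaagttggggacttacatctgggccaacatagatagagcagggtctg

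**Figure D2:**
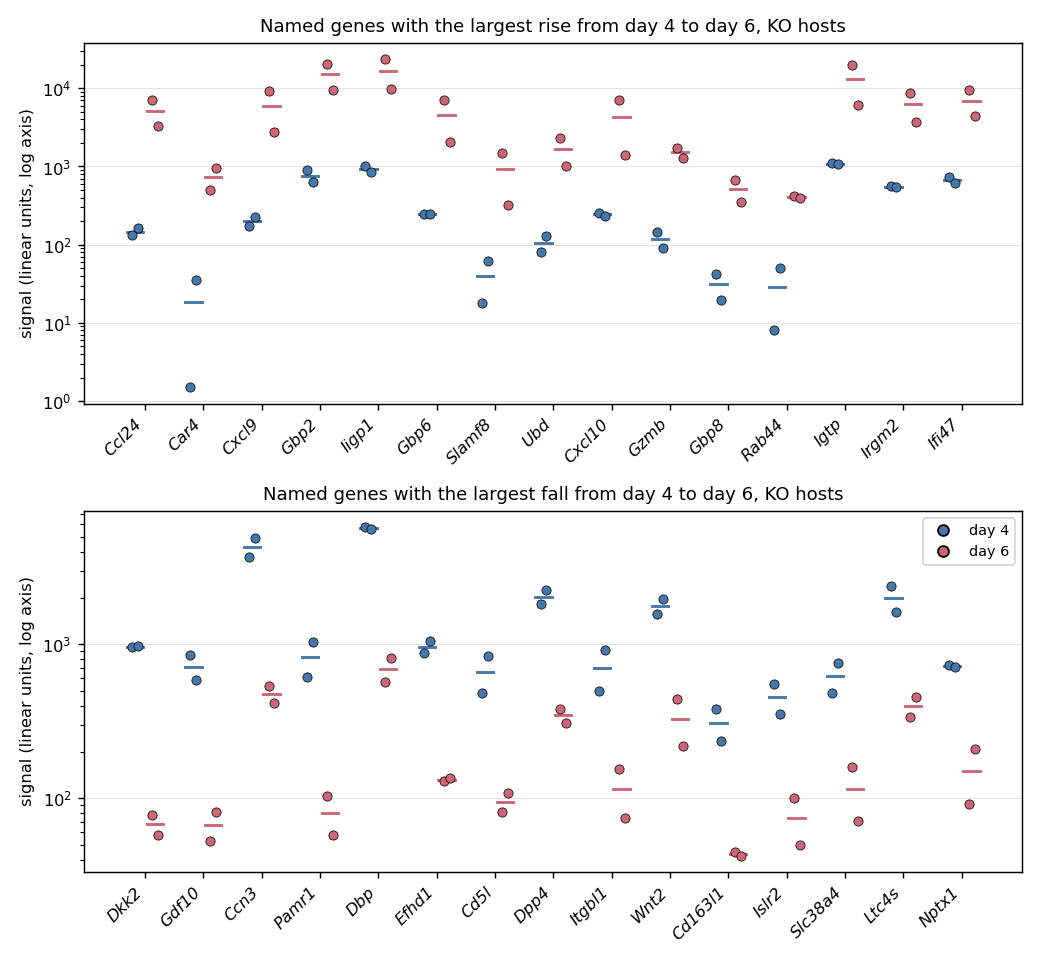
Signals (y axis, linear units on a log axis) of the named autosomal genes with the 15 largest rises and the 15 largest falls among the genes called; points are the 2 arrays of KO day 4 (blue) and KO day 6 (red), and lines are group means. The groups do not overlap for any of the 30 genes, and the interferon genes on top are higher in replicate 1 of day 6, such as Cxcl10 with 7055.7 and 1408.9.

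Several genes of antigen processing for MHC class I were called higher, while the heavy chains themselves were not. Tap1, which carries peptides into the endoplasmic reticulum, had 982 and 759.8 at day 4 and 5166.6 and 2534.4 at day 6, a difference of 2.05. Other probe sets of Tap1 did not show this, with differences down to −0.89. Nlrc5, the transactivator of class I genes, rose by 2.13, and the immunoproteasome subunits Psmb8, Psmb9 and Psmb10 by 1.41, 1.73 and 1.57. H2-K1 and H2-D1, the class I heavy chains, had differences of −0.08 and −0.01, although the probe sets of H2-D1 ranged from −1.59 to 1.25, and B2m, their light chain, had −0.35 (adjusted p = 0.0796 from limma). Of 18 tested genes of the list, 9 were called higher and 0 lower, with a median of 0.81 against 0.0049 over all genes. MHC class II presentation had no gene called higher among 12 and 1 called lower, H2-Ob (−1.78), a modulator of peptide loading.

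Genes of the type I interferon response moved less. Of 27 tested, 5 were called higher, Zbp1 (1.85), Parp14 (1.83), Rsad2 (1.43), Rtp4 (1.34) and Ifi35 (0.90), and 1 lower, Ifi27l2a (−0.82). Zbp1, a sensor of nucleic acids, had 579.8 and 663.5 at day 4 and 3621.5 and 1429.9 at day 6, and Rsad2, the antiviral protein viperin, had 861.9 and 698.9 at day 4 and 3055.8 and 1458.7 at day 6. The median of the list was 0.65 and depended on the arrays of day 6, with 0.23 without replicate 1 and 1.16 without replicate 2. Ifit1 and Ifit3, antiviral genes of this response, had differences of 1.31 and 0.75 and were not called (adjusted p = 0.0767 and 0.105 from limma).

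Among chemokines, Ccl24 had the largest rise of any autosomal gene called. Ccl24, which attracts eosinophils, had 131.5 and 162 at day 4 and 6991.4 and 3323.3 at day 6, a difference of 4.90 (standard error 0.38, adjusted p = 0.00206 from limma). In WT hosts its signals were 747.5 and 477.8 at day 4 and 1052 and 629.9 at day 6, groups that overlapped. The monocyte chemokines of the CCR2 axis rose together. Ccl2 had 3921.6 and 2856.1 at day 4 and 21005.4 and 8554.6 at day 6 (difference 1.997), and Ccl12, Ccl7 and Ccl8 rose by 2.24, 1.95 and 1.07. Ccr1 and Cx3cl1, a receptor and a membrane-bound chemokine, rose by 1.09 and 1.21, although other probe sets of Cx3cl1 went down to −1.44. Csf1, the growth factor of macrophages, rose by 0.47. These were the 7 of 14 monocyte chemokines and receptors called higher, and 0 were lower (median 0.75). Ccr2 itself had −0.64 (adjusted p = 0.224 from limma).

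Of 13 genes of alternative macrophage activation and type 2 responses, 5 were called higher and 0 lower. Besides Ccl24 these were Chil3 (3.20), a chitinase-like protein of macrophages, Ccl17 (2.21), a chemokine for T helper cells, Socs2 (1.31) and Il4ra (0.96), the receptor chain for IL-4 and IL-13. Chil3 varied most between the arrays of day 6, with 5943.1 and 758.7 against 220.2 and 215.7 at day 4. Arg1, Mrc1 and Retnla, common markers of such macrophages, had differences of 0.71, 0.58 and 0.14 and were not called. The median of the list was 0.995, or 0.614 without replicate 1 of day 6. General macrophage genes did not share a direction, with 4 of 20 called higher, 1 lower and a median of −0.02. Fcgr3 and Fcgr1, receptors for antibodies, rose by 1.02 and 0.85, Msr1, a scavenger receptor, by 0.75 and Ms4a7 by 0.57. Mertk, a receptor for dying cells, fell by 0.57, and Csf1r and Adgre1 had 0.14 and −0.23.

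Cytotoxic genes were led by Gzmb, a protease of cytotoxic granules. Gzmb had 143.8 and 90 at day 4 and 1739.6 and 1290.2 at day 6, a difference of 3.54 (standard error 0.27, adjusted p = 0.00206 from limma). Gzma, another granule protease, had 129.6 and 157.9 at day 4 and 818.1 and 429.6 at day 6 (difference 1.94), and Il2rb, the receptor chain for IL-2 and IL-15, rose by 2.36 from 38.7 and 14.9. These 3 of 15 genes were called higher and 0 lower. Prf1, the pore-forming partner of granzymes, had 0.46, and Klrd1, an NK cell receptor, had −0.74, and neither was called. The median of the list was 0.46, or 0.15 without replicate 1 of day 6. Of 13 T cell genes only Icos, a costimulatory receptor, was called (1.43, from 63.2 and 113 to 241.1 and 271.6), with a median of 0.65. Cd3d and Cd3g, chains of the T cell receptor complex, had 1.20 and 0.88 and did not pass. Cd4 lay below the limit for testing at 16.2 to 20.6, and Cd8a had 123.2 to 169.5 in KO tumours of both days.

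Cd274, which encodes PD-L1, had 361.5 and 275 at day 4 and 2453.1 and 1128.6 at day 6, a difference of 2.34 (standard error 0.35, adjusted p = 0.02 from limma). Pdcd1lg2, the gene of PD-L2, had 144.8 and 101.6 at day 4 and 766.5 and 500.6 at day 6, a difference of 2.21. Tnfrsf4, the costimulatory receptor OX40, rose by 0.99. Tnfrsf9, which encodes the costimulatory receptor 4-1BB, moved the other way, with 11979 and 11392.5 at day 4 and 3051.4 and 2891.6 at day 6 (difference −1.97). Thus 3 of 13 checkpoint genes were called higher and 1 lower.

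Of the 10 cytokine genes that the study plotted, a choice that rests on the same tumours of day 6, 7 were tested and 2 were called, both higher. Il24, a cytokine of the IL-10 family, had 130 and 114.7 at day 4 and 996.5 and 1635.5 at day 6, a difference of 3.23 (standard error 0.42, adjusted p = 0.0132 from limma). Il6, which induces the acute phase, had 635.9 and 458.3 at day 4 and 2123.8 and 1299.4 at day 6, a difference of 1.59 (standard error 0.27, adjusted p = 0.0227). Cxcl1, which attracts neutrophils, had a difference of 1.50 (standard error 0.60) and Il10 of 0.89 (standard error 0.43), and neither passed. Bcl3, a regulator of NF-κB, rose by 1.17. Csf2, the growth factor GM-CSF, rose by 2.33 from 28.2 and 18.7 to 250.5 and 129.8. Il1rap and Il1r1, chains of the IL-1 receptor, rose by 1.17 and 0.99, and Il18bp, the soluble inhibitor of IL-18, by 2.25. The other probe sets of Il1rap and Il1r1 gave differences down to −0.23 and −0.29. Of 17 neutrophil genes 0 were called (median 0.61), with S100a8 at 709 and 2000.8 at day 4 and 3528.6 and 2698.3 at day 6. Feedback genes of NF-κB had 5 of 18 called higher, Birc3 (1.45), Vcam1 (1.23), Nfkbie (0.85), Sod2 (0.85) and Tnfaip2 (0.65), and 0 lower. Myd88, the adaptor of most Toll-like receptors, rose by 0.85, and Irak3, an inhibitor of the same pathway, fell by 0.78.

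**Figure D3:**
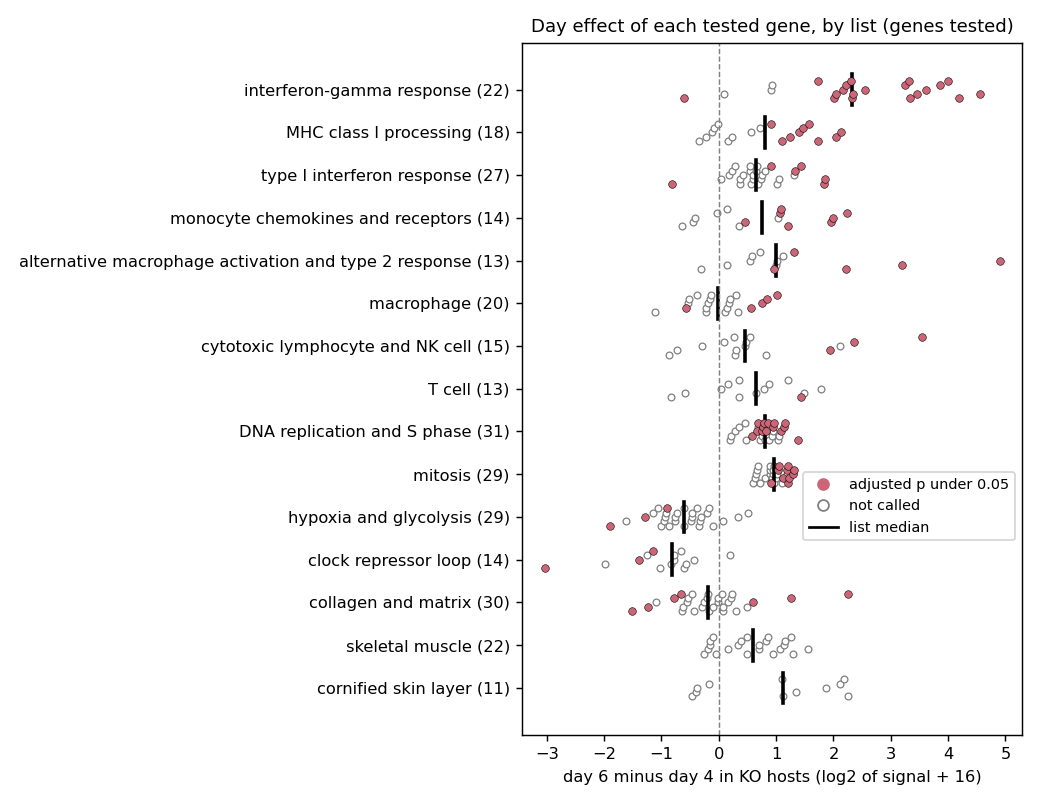
Difference between day 6 and day 4 in KO hosts (x axis, log2 of signal + 16) for each tested autosomal gene of 15 lists (rows, with the number tested); filled red points passed limma's test at an adjusted p under 0.05, open points did not, and black lines are list medians. The interferon-γ response lies furthest to the right with a median of 2.33. Mitosis and S phase genes lie entirely above 0, and genes listed on the repressor side of the clock lie below 0 but for 1 gene.

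Differences of cell cycle genes were positive throughout both lists. All 31 tested genes of DNA replication and S phase had positive differences and 29 had groups that did not overlap, and 14 of them were called higher, with a median of 0.80. Pole, the catalytic subunit of DNA polymerase ε, had 389.4 and 489.4 at day 4 and 1147.4 and 1182.3 at day 6 (difference 1.38). Ccne1, the cyclin that starts S phase, rose by 1.15, Rrm2, a subunit of ribonucleotide reductase, by 1.15, and Gins1, part of the replicative helicase, by 1.09. Of 29 genes of mitosis, 29 had positive differences and groups that did not overlap, and 10 were called higher (median 0.96). Of all 12505 tested genes, 3885 had groups that did not overlap with day 6 higher, and 3.74% were called higher. Aurka, a kinase of the spindle, had 893.5 and 858.6 at day 4 and 2066.6 and 2322.8 at day 6 (difference 1.31), and Birc5, the survivin gene, had 2400.5 and 2166.7 at day 4 and 5544.9 and 5647.9 at day 6 (difference 1.29). The second probe set of Aurka had −0.60. Mki67, the proliferation marker, had 1.19 and missed the threshold (adjusted p = 0.0518 from limma). Leaving out any KO array kept both medians between 0.76 and 1.02. In WT hosts 24 and 23 genes of these lists were called higher, where 4.21% of all genes were, with medians of 1.18 and 1.31.

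Most genes of hypoxia and glycolysis had lower levels at day 6, with 26 of 29 negative differences and a median of −0.60, and 3 were called lower and 0 higher, where 2.46% of all genes were called lower. Car9, a carbonic anhydrase induced by HIF, had 7526.8 and 7947.9 at day 4 and 2152.7 and 1995.8 at day 6 (difference −1.89, standard error 0.45, adjusted p = 0.0464 from limma). Pdk1, a kinase that inhibits pyruvate dehydrogenase, fell by 1.29 and Higd1a, a hypoxia-induced mitochondrial protein, by 0.90. Ankrd37, a HIF target, had −1.62 and the glucose transporter Slc2a1 had −1.06, and neither was called. Gapdh and Ldha, enzymes of glycolysis with very high signals, had 0.07 and −0.11. The list median was −0.40 without replicate 1 of day 4 and −0.84 without replicate 2.

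Clock transcripts of the repressor side had lower levels at day 6, and 3 of them passed the test. Their list also holds Dbp, Tef and Hlf, which are not repressors of the loop. Dbp, a transcription factor driven directly by CLOCK and ARNTL, had 5741.9 and 5623.9 at day 4 and 568.2 and 817.8 at day 6, a difference of −3.03 (standard error 0.24, adjusted p = 0.00206 from limma). Its difference in WT hosts was −2.94. Per2, a repressor of the loop, had 436.7 and 527.9 at day 4 and 132.3 and 223.6 at day 6 (difference −1.40), and Nr1d2, a nuclear receptor that represses Arntl, had 12786.2 and 11331.2 at day 4 and 4280.4 and 6848.2 at day 6 (difference −1.15). Of 14 tested genes of the repressor side, 13 had negative differences with groups that did not overlap, 3 were called lower and 0 higher (median −0.81). Of all 12505 tested genes, 3780 had groups that did not overlap with day 6 lower, and 2.46% were called lower. Per3 and Ciart, with −1.25 and −1.02, missed the threshold (adjusted p = 0.0604 and 0.0586 from limma). The activators Arntl and Clock had 0.38 and 0.44, and 0 of 4 activator genes were called. The hour of sampling is not given, so hour and day cannot be told apart.

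The E-box CACGTG, which CLOCK and ARNTL bind, and the D-box TTATGTAA or TTACGTAA, which Dbp, Tef and Hlf bind, were searched on both strands in the RefSeq windows of these genes. Of 19 listed clock genes 16 had a window. The E-box was present in 5 of them, Bhlhe41, Ciart, Cry1, Per1 and Tef (31.2%, against 8.09% of all genes), and the D-box in 1, Per3 (6.25%, against 1.23%). Ciart, a repressor of the clock at chr3:95882179-95882478 (minus strand), holds 3 E-boxes, and Per3 at chr4:151044616-151044915 (minus strand) holds 2 D-boxes. These windows are printed because they hold more than 1 match each, shown in capitals. The windows of Dbp and Nr1d2 held neither motif, which says nothing about sites elsewhere in these genes.
Ciart: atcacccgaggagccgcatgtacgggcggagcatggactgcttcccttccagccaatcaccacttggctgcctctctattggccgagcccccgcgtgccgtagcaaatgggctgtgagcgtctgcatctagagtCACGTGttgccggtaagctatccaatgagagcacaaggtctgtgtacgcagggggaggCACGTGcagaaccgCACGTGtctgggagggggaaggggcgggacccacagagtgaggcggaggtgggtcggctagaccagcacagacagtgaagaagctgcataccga
Per3: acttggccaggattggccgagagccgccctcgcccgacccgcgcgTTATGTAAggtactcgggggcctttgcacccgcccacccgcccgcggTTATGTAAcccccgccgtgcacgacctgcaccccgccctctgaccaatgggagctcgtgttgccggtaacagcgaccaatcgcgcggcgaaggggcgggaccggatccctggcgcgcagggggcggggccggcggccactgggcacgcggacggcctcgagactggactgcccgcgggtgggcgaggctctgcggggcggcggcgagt

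**Figure D4:**
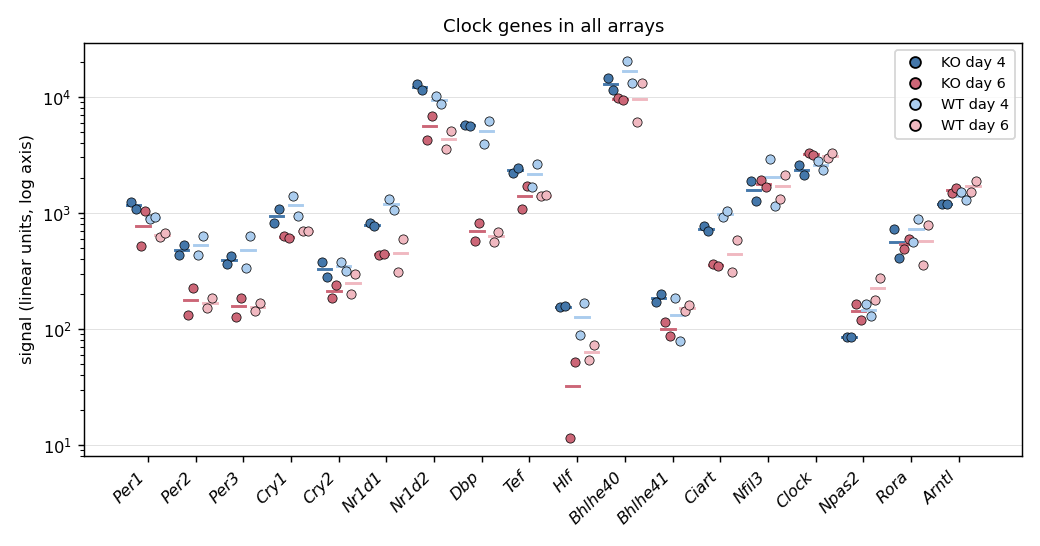
Signals (y axis, linear units on a log axis) of 14 clock genes of the repressor side and 4 of the activator side in all 8 arrays, with points for arrays and lines for group means of KO day 4, KO day 6, WT day 4 and WT day 6. Dbp falls from 5741.9 and 5623.9 to 568.2 and 817.8 in KO hosts and shows a similar fall in WT hosts.

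The 15 named genes with the largest falls had differences from −3.56 to −2.24. Dkk2, an inhibitor of WNT signalling, had 955.8 and 970.4 at day 4 and 78.3 and 57.6 at day 6, a difference of −3.56 (standard error 0.38, adjusted p = 0.00779 from limma). Gdf10, a ligand of the TGF-β family, had 845.6 and 583.7 at day 4 and 52.9 and 81.5 at day 6 (difference −3.13). Ccn3, a matricellular protein, had 3683.1 and 4883.6 at day 4 and 537.9 and 415.2 at day 6 (difference −3.12). The arrays of day 6 lay below those of day 4 by a wide margin for all of these. Wnt2, a WNT ligand, fell by 2.44, and Dpp4, a membrane peptidase found on fibroblasts and T cells, had 1834.9 and 2239.3 at day 4 and 381.1 and 309.3 at day 6 (difference −2.51). Others were Pamr1 (−3.11), Efhd1 (−2.72), Itgbl1 (−2.47), Islr2 (−2.39), the amino acid transporter Slc38a4 (−2.34), the leukotriene C4 synthase Ltc4s (−2.28) and Nptx1 (−2.24). Cd5l and Cd163l1, scavenger receptor genes of leukocytes, fell by 2.57 and 2.40.

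The matrix list as a whole showed no common direction, with 3 of 30 genes called higher, 4 lower and a median of −0.19. Fmod, a proteoglycan that binds collagen, had 489.4 and 360.2 at day 4 and 2029.1 and 2106.1 at day 6 (difference 2.26, standard error 0.24), and Tnc, the tenascin of wounds and tumours, rose by 1.25. Pdgfrb, a receptor of mesenchymal cells, rose by 0.60. Col14a1 fell by 1.52, Ccn2, the connective tissue growth factor, by 1.23, Col11a1 by 0.79 and Dcn, the proteoglycan decorin, by 0.66. Col1a1 and Col3a1, the main fibrillar collagens, had −0.20 and −0.18. Of 26 genes of endothelium 0 were called in KO hosts (median 0.21). In WT hosts 8 were called higher (median 0.83), where 4.21% of all genes were. For the difference between hosts, 8 of the 26 had an unadjusted p under 0.05 by limma, of which 0 passed its adjustment. Of all 12505 genes, 261 with a larger and 287 with a smaller value in KO had such a p. Pecam1 and Cdh5, junction proteins of vessels, had 0.37 and 0.75 in KO hosts.

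Cdh1, the E-cadherin of epithelial junctions, had 434.8 and 403.4 at day 4 and 2440.4 and 2441.6 at day 6, a difference of 2.50 (standard error 0.26, adjusted p = 0.00733 from limma). Krt8, a keratin of simple epithelium and of the carcinoma, rose by 0.55, while Lamb3, a laminin chain of the epithelial basement membrane, fell by 1.80. Twist1, a factor of mesenchymal cells, fell by 0.77. The EGF receptor ligands Btc and Hbegf rose by 1.44 and 0.63. Of 19 basal epithelial and keratin genes, 2 were called higher and 1 lower. Their median was 0.22 with all arrays, 0.67 without KO day 6 replicate 1 and −0.32 without replicate 2, in which Krt10 was high, and the part of skin in these values was not tested.

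The stress response lists given next had shares called lower above the 2.46% over all genes, where 3.74% were called higher. Each share rests on at most 3 genes called lower. The cystine transporter Slc7a11 fell by 1.96 and Gclc, the first enzyme of glutathione synthesis, by 1.04, and 3 of 15 NRF2 targets were called lower and 2 higher. Dnajb9, a chaperone of the endoplasmic reticulum, fell by 1.02, and of 25 genes of the unfolded protein response and ATF4 1 was called higher and 2 lower. Of 17 targets of p53, 0 were called higher and 2 lower, Pmaip1 (−1.09) and Trp53inp1 (−0.89). Of 18 immediate early genes, 0 were called higher and 2 lower, the zinc finger factors Klf2 (−0.97) and Klf4 (−0.65). Cd55, which protects cells from complement, fell by 2.09, and Masp1, which starts its lectin pathway, rose by 1.06. Another 12 lists were grouped because none of their 130 tested genes was called by limma. They were ribosomal proteins, cholesterol synthesis, heat shock, glucocorticoid response, dendritic cell, mast cell, B cell, adipocyte, red blood cell, nerve, hair follicle and pericyte. Of the 130, 24 had an unadjusted p under 0.05 by limma, against 1752 higher and 1504 lower of all 12505 genes. The medians of these lists ran from −0.47 (6 B cell genes) to 0.78 (10 mast cell genes). Ribosomal proteins had a median of 0.0089 over 19 genes. In all, 130 of the 776 called genes stood in any of the 50 lists, against 742 of the 12505 genes tested, and some genes stood in several lists.

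The difference between the hosts was tested for each gene as the day effect in KO minus that in WT hosts. By limma 0 of 12505 genes were called (0.0%), with a lowest adjusted p = 0.327, while 261 genes with a larger and 287 with a smaller value in KO had an unadjusted p under 0.05. Without KO day 6 replicate 1 the count was 9 and without replicate 2 it was 3. The days of both hosts share no array, but the calls in KO and WT hosts are not independent. Each gene's spread was taken over the arrays of both hosts, so its standard error was the same in each, such as 0.38 for Ccl24. Sex-linked transcripts also split with the day in both hosts, and Dbp had −3.03 in KO and −2.94 in WT hosts. The part of host sex and hour of sampling in the agreement given next was not tested. Of the 468 genes called higher in KO hosts 458 had a positive difference in WT hosts as well, and 299 of the 308 called lower had a negative one. Called in both hosts were 327 genes, all in the same direction, which is 42.1% of the calls in KO and 44.7% of those in WT hosts. Across the 12505 genes, which are not independent replicates, the effects had a Pearson r of 0.616 and a Spearman rho of 0.651. The median of the genes called higher in KO was 0.87 in KO and 0.69 in WT hosts, and that of the genes called lower was −0.99 and −0.63.

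Ccl24 had the smallest p of this test, with 4.90 in KO and 0.44 in WT hosts, a difference of 4.46 (standard error 0.54, adjusted p = 0.327 from limma). Car4, a membrane-bound carbonic anhydrase, had 1.5 and 35.5 at day 4 and 503.9 and 965.6 at day 6 in KO hosts, and 69 and 80.3 and then 176.2 and 66.3 in WT hosts. Il24 had 3.23 in KO and 0.37 in WT hosts. After Ccl24, the named genes with the smallest p were Sned1, Slfn4, Serpina3n, Ccn2 and Col11a1, at differences of 2.22, 2.17, 1.64, −1.20 and −1.26. Slfn4, a myeloid gene of the Schlafen family, had 1629.4 and 1330.7 at day 4 and 6227.1 and 3703.9 at day 6 in KO hosts (difference 1.70), and −0.47 in WT hosts. Serpina3n, a protease inhibitor of the acute phase, was not called in KO hosts. In the interferon-γ list, 5 of 22 genes were called higher in WT hosts, where 4.21% of all genes were. The median was 1.14 in WT against 2.33 in KO hosts, and 12 had an unadjusted p under 0.05 by limma for the difference. Of all 12505 genes, 261 with a larger and 287 with a smaller value in KO had such a p. In the type I interferon list the WT median was −0.20 against 0.65 in KO hosts, with 0 called in WT hosts and 14 of 27 at an unadjusted p under 0.05. None of these passed the adjustment over all genes, which does not show that the hosts changed alike.

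**Figure D5:**
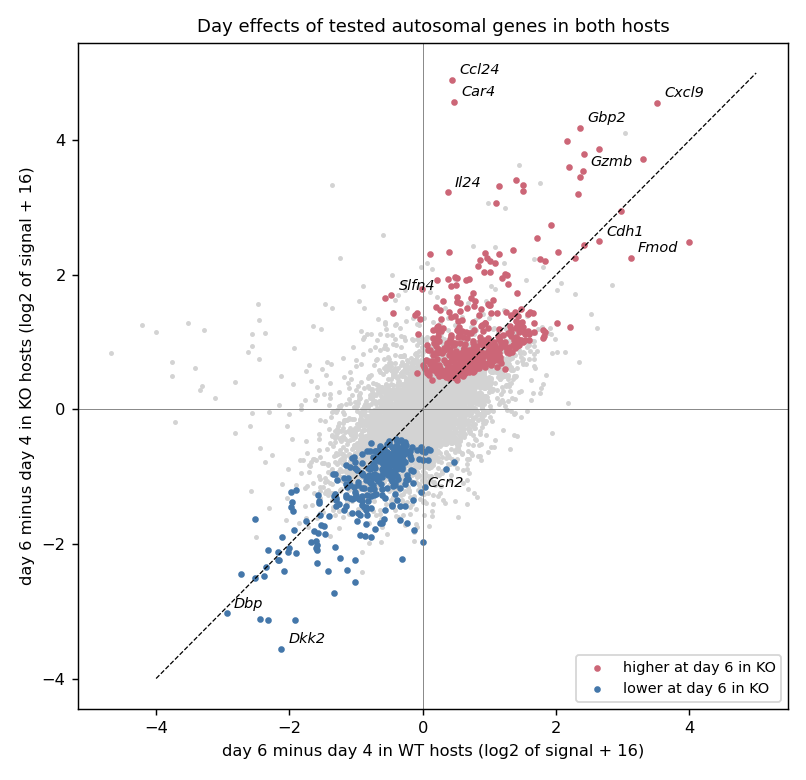
Difference between day 6 and day 4 in KO hosts (y axis) against that in WT hosts (x axis), both in log2 of signal + 16, for 12505 tested autosomal genes; red points were called higher and blue points lower in KO hosts, and the dashed line marks equal values. Most called genes lie in the same quadrant in both hosts, while Ccl24 has 4.90 in KO and 0.44 in WT hosts.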

How the data were processed

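RNA of 8 tumours (WT or KO host, day 4 or day 6, 2 each) was hybridised to Affymetrix mouse 430 2.0 arrays. Per the labels, the authors computed MAS5 signals, and the deposited values are intensities on a linear scale with a trimmed mean of 1000 on each of the 8 arrays. Probe sets with 1 gene symbol (34958) were reduced to 1 per gene, that with the highest mean over the 8 arrays. The 12976 genes tested had a mean of at least log2 6.56 (a signal of 78.6), the 40th percentile over all probe sets. log2(signal + 16) was fitted with limma 3.58.1 in R 4.3.3 (lmFit, eBayes with a trend) over 4 groups with 4 residual degrees of freedom, and p-values were adjusted by the Benjamini-Hochberg method over all tested genes. The scripts were tested on simulated data. Autosomal genes were taken from a RefSeq table of GRCm38.p6.

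Named were the 15 largest rises and falls among called genes whose groups did not overlap, up to 4 called genes of each of the 50 lists (the 2 with the smallest p where none was called), the cytokines, receptors and sex-linked genes fixed by name, tissue markers, and the 6 smallest p of the difference between hosts. Anonymous gene models were counted and not named. Other genes named were members of the lists picked with their values known. The comparison, the members and the lists were chosen with earlier results of these data known. Alternatives covered the scaling, pseudocount, filter, probe sets, spread, replicate block, each array left out and the methods' t-test.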

Additional observations from a re-analysis of the deposited data

Results flagged for a closer look

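For 324 of the 12505 tested autosomal genes (2.59%) both arrays of day 6 lay on one side of day 4 in KO hosts and on the other side in WT hosts. Among the genes whose difference between the days is given above, 7 did so. Of these, Sned1, Serpina3n and Col11a1 were named for a small p of the difference between the hosts by limma, a choice that favours opposite directions. In limma's test of the difference between the hosts none of the 7 passed the adjustment over all genes (adjusted p = 0.996 for each).

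Sned1, which encodes an extracellular matrix protein, rose in KO hosts (112.6 and 74.4 to 334.2 and 315.7) and had 313.5 and 330.2 at day 4 and 183.9 and 245.3 at day 6 in WT hosts, a difference of 2.22 between the effects. Serpina3n had a difference of 1.64, with signals of 2130.2 and 2682.2 at day 4 and 1102.9 and 1269.1 at day 6 in WT hosts. Rsad2, Ifit1 and Ifit3, genes of the type I interferon response, had differences of 1.87, 1.86 and 1.44. Ifit1 had 408.4 and 412.8 at day 4 and 1661 and 646.9 at day 6 in KO hosts, against 1505.8 and 1120 and then 764.2 and 1003.6 in WT hosts. Il10 had a difference of 1.68, from 134.5 and 93.8 to 146.9 and 332.3 in KO hosts and from 273.9 and 162.7 to 106.7 and 125.5 in WT hosts. Col11a1 went the other way, with a difference of −1.26, from 885.5 and 898.5 to 497 and 523.6 in KO hosts and from 483.3 and 483 to 731.8 and 627.2 in WT hosts.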

How the results depend on the processing

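The 776 calls in KO hosts (468 higher, 308 lower) stayed within 1.5 times under quantile normalization, pseudocounts of 1 and 64, a filter at the 60th percentile and adjustment over autosomal genes alone. Median centring gave 1301 (1106 and 195), no filter 502 (301 and 201), the mean of all probe sets 377 (201 and 176), the compared groups alone 1672 (954 and 718) and no trend 69 (30 and 39). The methods' t-test gave 1 after Benjamini-Hochberg adjustment (1 and 0), Phldb2 (5798.8 and 5799 to 7771.6 and 7778.8), and 2519 at an unadjusted p under 0.05. With an array left out the calls ranged from 2 to 1310, those higher from 2 to 767 and those lower from 0 to 543, and calls of a difference between hosts from 0 to 9. The causes were not tested. When probe sets were averaged, 10 of the 776 genes changed sign.

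With the replicate number as a block there were 310 calls (186 and 124), of which 308 were among the 776. Replicates of the same number deviated together with r = 0.215 between KO day 4 and KO day 6, and from −0.12 to 0.274 over all pairs of groups, and with 2 replicates the numbers share only a name.

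Among 152 genes given with a difference, the sign turned only for uncalled values near 0 or resting on 1 array. For called genes, leaving out an array could not turn it. Many calls were lost, for 121 of the 152 genes by the methods' t-test and 97 with no trend. The block cost 40 calls, no filter 30, and the mean of all probe sets 50 of 150 genes. Other scalings and pseudocounts cost 0 to 11. H2-K1 had 0.084 under median centring and −0.17 to 0.010 with an array left out. H2-D1 had 0.075 under quantile normalization, 0.16 under centring and −0.058 to 0.044 with an array left out (0.028 without KO day 6 replicate 2). Ldha had 0.058 under centring, and with an array left out Gapdh had −0.0064 to 0.15 (−0.0045 without KO day 6 replicate 2) and Retnla −0.59 to 0.88. Low signals limit the genes below 78.6, where 13 of the genes called higher lay on both arrays of day 4 and 9 of those called lower on both arrays of day 6.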
